A study of Mus musculus with 4 samples.

Results

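The respiratory chain subunits described here are the 86 genes, of 22565 in the deposited table, whose symbol matches the naming patterns of nuclear-encoded subunits of oxidative phosphorylation: Ndufa, Ndufb, Ndufc, Ndufs and Ndufv with a number, Sdha to Sdhd, Uqcr, Cyc1, Cox4 to Cox8 and Atp5. By symbol, 37 belong to complex I, 4 to complex II, 9 to complex III, 18 to complex IV and 18 to complex V. The naming pattern itself uses no measured value. A few symbols mislead: Ndufa4 is by current knowledge a complex IV protein, Atp5sl is a complex I assembly factor, Atp5s is a coupling factor that is not a core subunit, and Atp5l-ps1 is a pseudogene. Ndufab1, an acyl carrier protein of complex I, does not match the pattern and is treated as a partner gene.

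RNA was measured by sequencing of ribosomal RNA-depleted total RNA from alveolar epithelial type II (AT2) cells, which make the surfactant that lines the lung alveolus, sorted by flow cytometry from mice aged 6 months. There were 2 libraries of wild type (WT) and 2 labelled KO, without treatment, and the labels describe the mice as Fbxo45-cKO, where Fbxo45 encodes an F-box protein that brings substrates to a ubiquitin ligase. In the genotype field, KO replicate 1 carries the name Fbxo45 and KO replicate 2 the name Fbxo46, and the titles group both as KO. Not given in the sources used here are the strain, the Cre driver, the deleted exons and the number of animals per library. The p-values therefore measure only how these libraries vary, and that variation may be technical.

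The electron transport chain sits in the inner mitochondrial membrane. Complex I takes electrons from NADH and complex II from succinate, both pass them to ubiquinone, and complex III and cytochrome c carry them to complex IV, which reduces oxygen. Complexes I, III and IV pump protons, and complex V, the ATP synthase, uses the returning protons to make ATP. AT2 cells are rich in mitochondria. Most subunits are encoded in the nucleus and a small set in the mitochondrial genome, and several complex IV subunits exist as general forms and as forms of heart and skeletal muscle.

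The deposited table gave FPKM (fragments scaled to transcript length and library total) and estimated counts. Division of the estimated counts by the step that each library's values share gave 4167117 and 8200173 fragments for WT replicates 1 and 2, and 9507427 and 7066424 for KO replicates 1 and 2. Fragments scaled to these totals alone, without length, are called CPM. Fbxo45 was at 4.60 and 5.91 FPKM in WT, against 4.41 and 7.58 FPKM in the KO-labelled pair, so it did not separate the groups, and a value per gene cannot show the loss of an exon. Fbxo46 was at 4.13 and 3.79 FPKM in WT, against 3.82 and 4.80 FPKM in KO replicates 1 and 2. All 11 AT2 markers examined were detected in every library, and their sum was lowest in KO replicate 1. They summed to 158600 and 152200 FPKM in WT, with KO replicate 1 at 106500 FPKM and KO replicate 2 at 147600 FPKM. Most of that sum was Sftpc, at 101500 and 94980 FPKM in WT, against 54460 and 87680 FPKM in KO replicates 1 and 2. Single markers differed: Napsa, Abca3 and Etv5 were highest in KO replicate 1, and Sftpb was lowest in KO replicate 2. The other AT2 markers were lowest in KO replicate 1. KO replicate 1 stood apart by fast skeletal muscle transcripts: 14 marker genes summed to 1.46 and 11.03 FPKM in WT, with KO replicate 1 at 1304 FPKM and KO replicate 2 at 10.8 FPKM. The libraries labelled KO were the least alike of the 6 pairs, with a Pearson correlation of log2(FPKM + 1) of 0.906 over 11055 genes, against 0.971 between the WT libraries.

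Regulatory sequence near the start sites of these genes was read first. RefSeq promoter windows (GRCm38.p6, 250 bases before to 50 after a start site) were found for 69 of the 86 members, in 75 entries. The palindromic binding sequence of NRF1, a transcription factor known for respiratory chain genes, was in 6.67% of the members' entries, 2.19% of entries of tested genes and 0.971% of all entries. The 5 members that hold it follow, since they show the letters themselves: the capitals are the whole sequence searched, in 30 bases each, 5′ to 3′ on the strand of the gene.
Uqcrc1 (chr9:108936668-108936697, plus strand): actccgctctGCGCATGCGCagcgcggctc
Ndufa11 (chr17:56717692-56717721, plus strand): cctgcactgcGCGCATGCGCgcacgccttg
Cox6a1 (chr5:115349101-115349130, minus strand): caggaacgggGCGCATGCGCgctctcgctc
Atp5g2 (chr15:102671070-102671099, minus strand): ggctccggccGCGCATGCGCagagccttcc
Atp5k (chr5:108434430-108434459, minus strand): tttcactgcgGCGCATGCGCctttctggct

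A second stretch, AAGATGGC, the core of a binding sequence of the factor YY1, was in 16% of the members' entries, 4.64% of those of tested genes and 2.75% of all entries. The stretch holds the letters of a start codon. Matches are printed for 3 subunits of complex I and for 2 of the ATP synthase, with the match in capitals, which in Atp5f1 reads on the other strand. The match began 22, 38, 24 and 23 bases after the start site in Ndufa3, Ndufb8, Ndufs7 and Atp5j2. In Atp5f1 it began at position -3, before the start site.
Ndufa3 (chr7:3617384-3617413, plus strand): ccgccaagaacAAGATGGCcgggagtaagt
Ndufb8 (chr19:44555393-44555422, minus strand): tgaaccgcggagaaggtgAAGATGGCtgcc
Ndufs7 (chr10:80249462-80249491, plus strand): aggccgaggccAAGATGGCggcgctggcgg
Atp5j2 (chr5:145191500-145191529, minus strand): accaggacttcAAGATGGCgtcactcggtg
Atp5f1 (chr3:105959248-105959277, minus strand): atgtgcgagcgGCCATCTTgctcctgcccc

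Both strands were searched, and matches of different motifs could overlap. CCGGAAG, a core of ETS factor sites, was in 21.3% of the members' entries and in 18.3% of those of tested genes. TCAAGGTCA, a site of estrogen-related receptors, was in 2.67% and 0.272%, that is, in the entries of Atp5g3 and Sdhd. GGGCGG, the core of SP1 sites, was in 38.7% and 63.9%. Entries of 1 gene can overlap, and the same AAGATGGC match of Atp5sl was counted in more than 1 entry. No test was made of these shares.

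Levels of the members ran from 0 to 268 FPKM in single libraries. Of the 86 members, 81 passed the filter (1 FPKM or more in 2 or more libraries) and were tested: 36 of complex I, 4 of complex II, 9 of complex III, 15 of complex IV and 17 of complex V. The other 5 were Ndufa4l2, Cox8b, Cox7b2, Cox8c and Atp5l-ps1, of which the last 3 were listed at 0 in all 4 libraries. A count of 0 allows up to 0.72, 0.366, 0.316 and 0.425 CPM in WT replicates 1 and 2 and KO replicates 1 and 2 (3 fragments, counting error only). Summed over all members, FPKM was 4321 and 4470 in WT and 4489 and 4344 in the libraries labelled KO. The sum of CPM was 3563 and 3644 in WT, 4237 in KO replicate 1 and 3490 in KO replicate 2, so the groups overlapped on both scales. In bulk RNA, fewer cells of a type and less RNA per cell cannot be told apart.

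**Figure D1:**
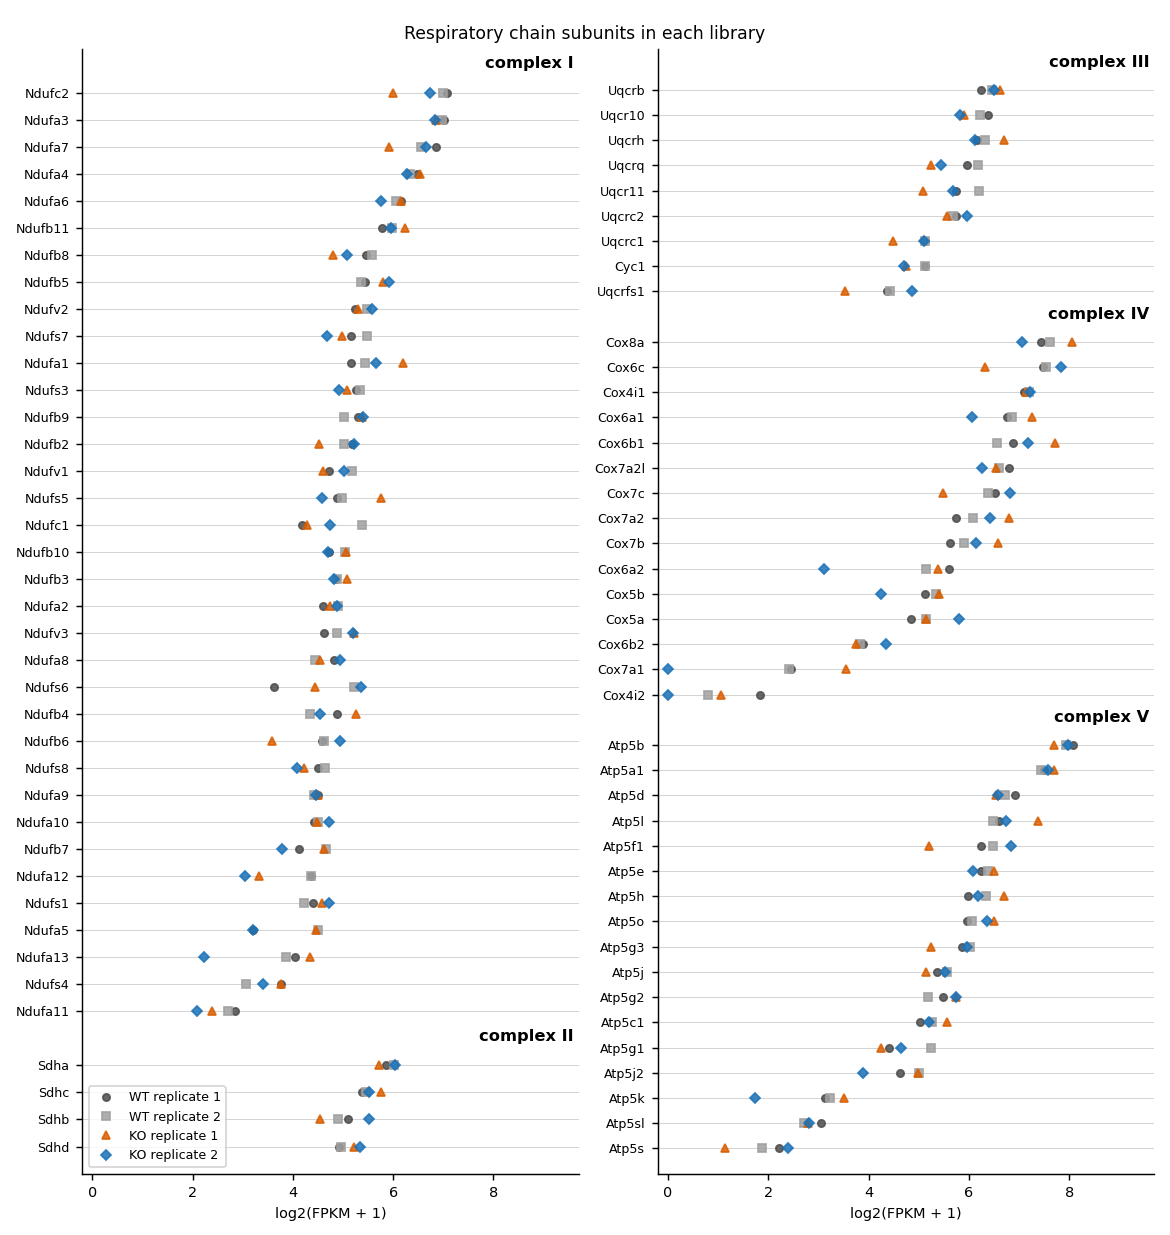
Log2(FPKM + 1) of the tested members, with 1 left out, in each of the 4 libraries (circles and squares WT, triangles and diamonds libraries labelled KO), grouped by complex and ordered by the WT mean. Most members keep their place across libraries, while Ndufa12, Ndufa13, Cox6a2, Cox7a1, Cox6c and Atp5f1 show points far from the rest.

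Atp5b and Atp5a1, the catalytic beta subunit and the alpha subunit of the ATP synthase head, had the highest levels of complex V in every library. Atp5b was at 268 and 246 FPKM in WT, against 206 and 250 FPKM in KO replicates 1 and 2. By CPM it was at 323 and 331 in WT, against 394 and 329 in KO replicates 1 and 2. KO replicate 1 was thus its lowest library by FPKM and its highest by CPM. Atp5a1 was at 180 and 171 FPKM in WT, against 208 and 191 FPKM in the KO-labelled pair. Both catalytic-head subunits thus lay several times above Atp5k, the e subunit of the membrane part, at 7.71 and 8.42 FPKM in WT.

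In complex IV, Cox8a and Cox6c, small structural subunits, and Cox4i1, a large regulatory subunit, were the 3 highest in both WT libraries. Cox4i1 was the steadiest of them by FPKM, at 136 and 146 FPKM in WT, against 140 and 148 FPKM in the KO-labelled pair (log2 difference 0.03). By CPM it was at 87.6 and 95.6 in WT, 112.9 in KO replicate 1 and 82.4 in KO replicate 2. Its locus in the table is shared with 74 other genes, so the division of fragments is uncertain. In complex I the highest in WT were Ndufc2, Ndufa3 and Ndufa7, all accessory subunits, at 93.4 to 134 FPKM. Subunits of the catalytic core, which carries the flavin and the iron-sulfur clusters, lay lower: Ndufs3 had 37.5 and 39.6 FPKM and Ndufs1 20.2 and 17.7 FPKM in the WT libraries. Sdha, the flavoprotein of complex II, was at 57.1 and 63.3 FPKM in WT, above Sdhb, Sdhc and Sdhd at 29.1 to 43.0 FPKM. In complex III the small subunits Uqcr10, Uqcrb and Uqcrh had the highest levels in WT, at 70.8 to 87.2 FPKM, and their order differed between the WT libraries.

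No member differed between the groups past the threshold. limma on log2(FPKM + 1) called 0 of 11055 genes (0%) at an adjusted p under 0.05, and 0 of the 81 members, with the lowest adjusted p over all genes at 0.948. At an unadjusted p under 0.05 there were 535 genes (4.84%) and 6 members (7.41%). Those 6 were Ndufa12, Ndufb8 and Uqcrq, lower in the libraries labelled KO, and Cox7a2, Cox6b1 and Cox7b, higher, against backgrounds of 2.16% lower and 2.68% higher. edgeR's quasi-likelihood test on the recovered fragments called 0 of 11705 genes (0%) and had 372 (3.18%) at an unadjusted p under 0.05, among them 4 of 79 members: Ndufc2, Uqcrq, Cox6b1 and Cox7a2. DESeq2 called 7 genes (0.0553%) and no member.

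The direction of the family as a whole depended on the scale. By FPKM 46 of 81 members (56.8%) were lower in the libraries labelled KO, against 45.9% of all genes, and by edgeR on fragments 34 of 79 (43%) were lower, against 48.1%. The median log2 difference over members was -0.07 by FPKM and 0.07 by edgeR, beside 0.03 and 0.02 over all genes tested by each.

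Complex III was the group with a median below 0 on both scales, -0.33 by FPKM and -0.24 by edgeR, with 6 of 9 members lower on each. Complexes I, IV and V had medians of -0.02, -0.15 and -0.13 by FPKM and 0.06, 0.15 and 0.14 by edgeR. In complexes I and V both medians cover the same genes and the sign turned. In complex IV edgeR gave no value for Cox4i2 and Cox7a1. The FPKM median without these 2 low genes (a filter of 5 FPKM) was 0.03. DESeq2, which gave values for all 15 tested genes, had a median of 0.16, against -0.15 by FPKM. The sign in complex IV thus turned with the genes included and also with the scale. Complex II, with 4 genes, was at 0.12 and 0.06. None of these medians was tested.

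Ndufa12, an accessory subunit of the part of complex I that faces the matrix, had the largest difference of the tested members on the log2(FPKM + 1) scale. At a pseudocount of 0.1 it was at -1.27, and Cox4i2 and Cox7a1, each listed at 0 in KO replicate 2, were both at -2.12. It was at 19.6 and 19.7 FPKM in WT, against 9.002 and 7.29 FPKM in KO replicates 1 and 2, from 38, 86, 60 and 22 fragments. Both libraries labelled KO lay below both WT libraries on each scale, and the WT values were nearly equal. On the log2 scale it differed by -1.18 (SE 0.229, limma adjusted p = 0.948), and by -1.06 in edgeR. The gene lies on chromosome 10 (94198720 to 94221443, plus strand, GENCODE M21 on GRCm38), and 16.8% of its sampled 100-base stretches also occur in a predicted gene, so its count is uncertain to that extent.

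Ndufb8, an accessory subunit of the membrane arm, was at 42.7 and 46.8 FPKM in WT, against 27.1 and 32.8 FPKM in the KO-labelled pair. It differed by -0.57 on the log2 scale (SE 0.209, limma adjusted p = 0.948). Its locus in the table (chromosome 19, GENCODE M21 gene 44548572 to 44555440, minus strand) is shared with 2 other genes. Ndufc2, the highest complex I subunit in WT, was at 134 and 127 FPKM in WT, against 62.6 and 106 FPKM in KO replicates 1 and 2. Again both libraries labelled KO lay below both WT libraries, by unequal amounts. Ndufa1, a small membrane subunit encoded on the X chromosome, went the other way, at 35.0 and 42.2 FPKM in WT, against 72.5 and 49.2 FPKM in the KO-labelled pair (log2 difference 0.63, SE 0.257, limma adjusted p = 0.948). Without KO replicate 1 its difference was 0.35, and after correction for GC content and length 0.94. Among core subunits, Ndufs3, Ndufs7 and Ndufs8 were below both WT values in both libraries labelled KO and Ndufs1 was above both. On CPM, Ndufs8 and Ndufs1 kept that pattern, while Ndufs3 and Ndufs7 did not.

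Sdhd and Sdhc, the membrane anchors of complex II, were above both WT values in both libraries labelled KO by FPKM. Sdhd was at 29.1 and 30.2 FPKM in WT, against 36.1 and 39.6 FPKM in the KO-labelled pair (log2 difference 0.34, SE 0.196, limma adjusted p = 0.948), and at 0.38 by edgeR. Sdhc had a log2 difference of 0.21 by FPKM and -0.01 by edgeR, and Sdha of -0.06 and 0.01. Sdhb, the iron-sulfur subunit, was at 33.4 and 29.1 FPKM in WT, with KO replicate 1 at 22.4 FPKM and KO replicate 2 at 45.0 FPKM, so the libraries labelled KO fell on opposite sides of WT.

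Uqcrq, a small supernumerary subunit of complex III, was at 61.4 and 71.5 FPKM in WT, against 37.0 and 42.5 FPKM in the KO-labelled pair. The groups did not overlap on either scale, and by FPKM it differed by -0.73 on the log2 scale (SE 0.205, limma adjusted p = 0.948), and by -0.68 in edgeR. Its gene is on chromosome 11 (53427922 to 53430831, minus strand, GENCODE M21 on GRCm38) and shares no 100-base stretch with another gene. Uqcr11 was at 52.9 and 72.3 FPKM in WT, against 32.9 and 50.5 FPKM in the KO-labelled pair (log2 difference -0.59, SE 0.287, limma adjusted p = 0.948). Its difference was -0.29 without KO replicate 1, -0.89 without KO replicate 2, -0.37 without WT replicate 2 and -0.16 after correction for GC content and length. Cyc1, cytochrome c1, was at 33.7 and 33.8 FPKM in WT, against 25.9 and 25.03 FPKM in the KO-labelled pair, and was lower on both scales. Uqcr10 was at 82.5 and 73.4 FPKM in WT, against 59.0 and 55.7 FPKM in the KO-labelled pair, while on CPM KO replicate 1 lay above WT. The log2 difference of Uqcr10 was -0.43 by FPKM, -0.24 by edgeR and -0.08 after correction for GC content and length.

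Cox7a2, Cox6b1 and Cox7b, small nuclear subunits of complex IV in their general forms, were the members with the smallest p among those higher in the libraries labelled KO. Cox7a2 was at 52.7 and 67.0 FPKM in WT, against 111 and 84.5 FPKM in KO replicates 1 and 2 (log2 difference 0.70, SE 0.237, limma adjusted p = 0.948), with 0.79 by edgeR. Cox6b1, which lies on the intermembrane side at the dimer contact, was at 116 and 93.4 FPKM in WT, against 209 and 144 FPKM in the KO-labelled pair (log2 difference 0.73, SE 0.257, limma adjusted p = 0.948), with 0.94 by edgeR. In both genes KO replicate 1 was the highest library and the groups did not overlap, and without that library Cox6b1 was at 0.46. Cox7b was at 48.6 and 59.1 FPKM in WT, against 94.8 and 69.9 FPKM in the KO-labelled pair, and its log2 difference of 0.59 by FPKM was 0.18 by edgeR and 0.38 without KO replicate 1. Cox7a2l, the form known from supercomplexes, was at 109.8 and 95.9 FPKM in WT, against 92.0 and 75.8 FPKM in KO replicates 1 and 2 (log2 difference -0.29, and -0.16 without KO replicate 2). Cox7a2 (chromosome 9, 79755361 to 79759878, minus strand) and Cox6b1 (chromosome 7, 30616861 to 30626151, minus strand) share no 100-base stretch with another gene. Cox7a2 made up 31.6% and 40.1% of the summed FPKM of Cox7a1, Cox7a2 and Cox7a2l in WT and 52.0% and 52.7% in the libraries labelled KO, a share picked out after its values were seen.

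Among ATP synthase genes, Atp5o, the stalk subunit that confers oligomycin sensitivity, was at 61.4 and 66.1 FPKM in WT, against 90.1 and 81.1 FPKM in the KO-labelled pair (log2 difference 0.42, SE 0.19, limma adjusted p = 0.948). Atp5l, the g subunit, was at 96.5 and 88.6 FPKM in WT, against 164 and 106 FPKM in the KO-labelled pair (log2 difference 0.51, SE 0.261, limma adjusted p = 0.948). KO replicate 1 held most of that difference in Atp5l, which was 0.19 without it and 0.82 without KO replicate 2. Both lay above both WT values on each scale. The ring of c subunits is encoded by 3 genes that make the same mature protein. Atp5g2 was at 43.6 and 35.5 FPKM in WT, against 52.8 and 52.3 FPKM in the KO-labelled pair, although 43.6% of its stretches occur in other genes. Its log2 difference was 0.41, and 0.26 without WT replicate 2. Atp5g1 (log2 difference -0.38) and Atp5g3 (-0.33) had values within or below the WT range.

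The libraries labelled KO differed more from each other than the WT libraries did. Over the 81 members the SD of the log2 difference between KO replicates 1 and 2 was 0.845, against 0.378 between the WT libraries. The values over all genes tested were 0.729 and 0.39. The correlation between the libraries labelled KO was 0.836 over members and 0.956 between the WT libraries. Between the libraries labelled KO, complex IV had the widest spread of the 5 complexes, with an SD of 1.31, made up of 0.937 over its 11 general forms and 1.76 over 4 tissue forms, some with few fragments. Between the WT libraries complex I was wider, at 0.463 against 0.359 for complex IV.

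In 23 members the libraries labelled KO fell on opposite sides of both WT values by FPKM. KO replicate 1 was below and KO replicate 2 above in 11 members (13.6%, against 17.3% of all genes), and the reverse held in 12 (14.8%, against 13%). Both were below in 16 members (19.8%, against 15.1%) and both above in 15 (18.5%, against 20%). These shares lie near the background. By CPM the pattern of KO replicate 1 above and KO replicate 2 below held in 23 members (28.4%), against 17.1% of all genes. The reverse held by CPM in 13.6% of members, against 16% of all genes. Both libraries were below in 13.6% by CPM (17.1% of all genes) and both above in 21% (16.4%). Beside the background, the shares below and above thus leaned opposite ways by FPKM and by CPM. The pattern by FPKM also held by CPM in 21 of the 23 members on opposite sides, in 10 of the 16 below and in 13 of the 15 above. The matching shares over all genes were not counted, so this agreement cannot be called particular to the members.

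**Figure D2:**
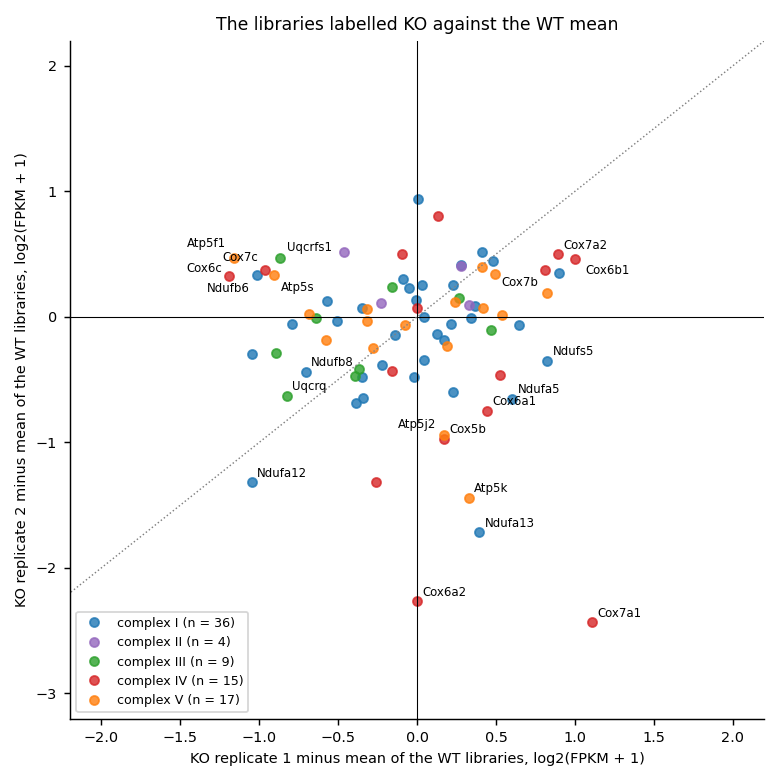
Each point is 1 of the 81 tested members, with the log2(FPKM + 1) difference from the mean of the WT libraries in KO replicate 1 (x axis) and KO replicate 2 (y axis), coloured by complex; the dotted line marks equal differences. Atp5f1 and Cox6c lie at the upper left, Cox7a1 and Ndufa13 at the lower right, and Ndufa12 and Cox6b1 near opposite ends of the line.

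Cox6c was at 177 and 186 FPKM in WT, with KO replicate 1 at 78.7 FPKM and KO replicate 2 at 227 FPKM. Atp5f1, the b subunit of the peripheral stalk, was at 74.4 and 88.6 FPKM in WT, with KO replicate 1 at 35.7 FPKM and KO replicate 2 at 113 FPKM. Cox7c was at 91.2 and 81.9 FPKM in WT, with KO replicate 1 at 43.8 FPKM and KO replicate 2 at 112 FPKM. KO replicate 1 was the lowest and KO replicate 2 the highest library in all 3, and the same held for Uqcrfs1, the Rieske iron-sulfur protein of complex III, at 19.7, 20.7, 10.6 and 28.3 FPKM in the same order. Ndufa13, an accessory subunit of complex I, showed the reverse, at 15.5 and 13.5 FPKM in WT, with KO replicate 1 at 19.4 FPKM and KO replicate 2 at 3.72 FPKM. Cox8a was at 173 and 197 FPKM in WT, with KO replicate 1 at 265 FPKM and KO replicate 2 at 133 FPKM. Cox6a1 was at 108 and 115 FPKM in WT, with KO replicate 1 at 152 FPKM and KO replicate 2 at 66.0 FPKM. For these members a mean of the libraries labelled KO describes neither library: the log2 difference was 0.03 for Cox8a and -0.15 for Cox6a1, and by edgeR 0.30 and 0.15.

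Without KO replicate 2, limma called 134 of 11055 genes (1.21%), and 2 of the 81 members were among them (2.47%): Cox6c with a log2 difference of -1.19 (adjusted p = 0.0326) and Ndufc2 with -1.04 (adjusted p = 0.0418). KO replicate 2 lay above both WT libraries in Cox6c and below both in Ndufc2. In that fit the lone library labelled KO is assumed to vary like the WT libraries.

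Fragments were turned into FPKM differently in KO replicate 1 where transcripts were short, and most members are short. The median length of the transcript with the longest coding sequence was 838 bases over tested members and 2940 bases over all tested genes with a length. FPKM per CPM, relative to the WT libraries, was 0.771 in KO replicate 1 over the 20 members of up to 600 bases, 0.834 over 24 of 600 to 900 bases, 0.898 over 18 of 900 to 1500 bases and 0.897 over 19 longer ones. All tested genes gave 0.779, 0.858, 0.902 and 0.951 in the same classes, so on this ratio the members lay near the other genes of like length, lower by most in the longest class. In KO replicate 2 the same ratio was 1.09, 1.08, 1.05 and 1.05 over members. The same fragments therefore gave a lower FPKM in KO replicate 1 and a higher one in KO replicate 2, and the members' sum in KO replicate 1 was far above both WT libraries by CPM (4237) and close to them by FPKM (4489). The rank correlation of the difference between KO replicates 1 and 2 with GC content was 0.191 over members (0.214 over all genes). With transcript length it was -0.261 over members and -0.0193 over all genes, so among members, more than among all genes, short transcripts tended to be higher in KO replicate 1 than in KO replicate 2. A correction for GC content and length left its SD over members at 0.844. These correlations are across genes, which are not independent.

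**Figure D3:**
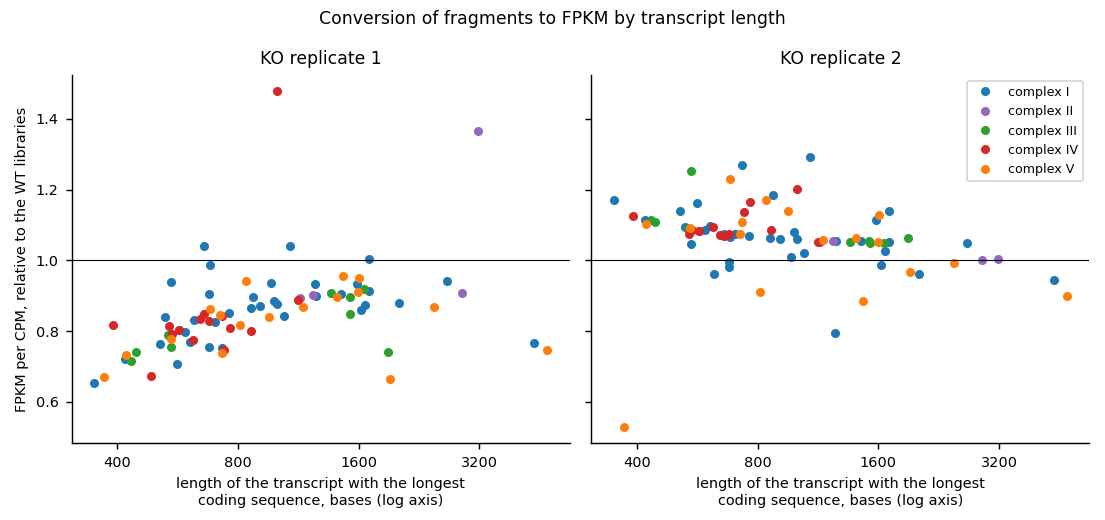
FPKM per CPM of each tested member, relative to the WT libraries, against transcript length on a log axis, for KO replicate 1 (left) and KO replicate 2 (right), coloured by complex. In KO replicate 1 most points lie below 1, and medians fall from 0.897 in the longest class to 0.771 in the shortest; in KO replicate 2 most lie above 1.

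The tissue forms of complex IV subunits differed in which library held them. Cox6a2, Cox7a1 and Cox8b are known as heart and skeletal muscle forms of Cox6a1, Cox7a2 and Cox8a. The aligned coding sequences of Cox8a and Cox8b are 54.2% identical and their longest identical run is 10 bases, so fragments of these genes are distinct. They are printed whole, and the first 240 coding bases of Cox6a1 and Cox6a2 (64.8% identical, longest run 12 bases) follow. Sequences are from GENCODE M21, and capitals mark bases that differ from the partner or face a gap in the alignment.
Cox8a: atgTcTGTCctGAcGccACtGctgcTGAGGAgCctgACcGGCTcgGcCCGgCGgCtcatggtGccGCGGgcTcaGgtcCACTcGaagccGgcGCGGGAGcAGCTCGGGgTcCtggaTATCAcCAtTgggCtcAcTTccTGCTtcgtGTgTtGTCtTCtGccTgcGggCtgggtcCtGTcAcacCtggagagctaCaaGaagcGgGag
Cox8b: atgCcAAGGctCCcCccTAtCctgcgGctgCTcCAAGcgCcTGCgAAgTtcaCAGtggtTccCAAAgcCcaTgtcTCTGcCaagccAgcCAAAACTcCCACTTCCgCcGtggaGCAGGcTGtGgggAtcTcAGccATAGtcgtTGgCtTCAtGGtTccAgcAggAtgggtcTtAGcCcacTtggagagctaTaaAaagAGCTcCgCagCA
Cox6a1: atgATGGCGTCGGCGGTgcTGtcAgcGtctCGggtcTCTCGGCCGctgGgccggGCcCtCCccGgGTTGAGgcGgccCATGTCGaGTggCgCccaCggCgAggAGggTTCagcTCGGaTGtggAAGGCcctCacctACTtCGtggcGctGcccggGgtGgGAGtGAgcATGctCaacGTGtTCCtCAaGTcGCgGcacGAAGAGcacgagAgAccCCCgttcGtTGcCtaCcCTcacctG
Cox6a2: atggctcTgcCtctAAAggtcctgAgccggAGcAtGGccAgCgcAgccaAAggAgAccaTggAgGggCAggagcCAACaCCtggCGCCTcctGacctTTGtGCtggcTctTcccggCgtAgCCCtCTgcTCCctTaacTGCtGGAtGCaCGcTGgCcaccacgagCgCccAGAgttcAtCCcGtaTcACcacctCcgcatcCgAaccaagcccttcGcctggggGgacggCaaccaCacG

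Cox8b was listed at 0 in both WT libraries and in KO replicate 2, and was at 12.4 FPKM in KO replicate 1, from 38 fragments (3.997 CPM). Cox7a1 was at 4.45 and 4.36 FPKM in WT, from 4 and 8 fragments, at 10.7 FPKM in KO replicate 1 from 33 fragments, and was listed at 0 in KO replicate 2. Its log2 difference was -0.66 by limma and 0.84 by DESeq2. KO replicate 1 was the highest library in both. All 14 fast skeletal muscle markers were above 0 in KO replicate 1, and 11, 2 and 2 of them were at 0 in WT replicates 1 and 2 and KO replicate 2. Their part in the values of Cox8b and Cox7a1 was not tested. The brown fat markers Ucp1 and Cidea were listed at 0 in all 4 libraries.

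Cox6a2 followed another pattern by FPKM. It was at 47.9 and 34.6 FPKM in WT, with KO replicate 1 at 40.8 FPKM and KO replicate 2 at 7.68 FPKM, from 114, 164, 269 and 29 fragments. By CPM it was at 27.4 and 20 in WT, 28.3 in KO replicate 1 and 4.1 in KO replicate 2. KO replicate 2 was the lowest library on both scales, and KO replicate 1 was the highest by CPM only. The fast muscle markers summed to 1.46, 11.03, 1304 and 10.8 FPKM in the same order. Of 9 heart markers, Myh7, the beta myosin heavy chain of heart and slow muscle, was at 18.1, 19.6, 19.1 and 18.3 FPKM. The other 8 were at 0 to 4.06 FPKM, and Myl7 and Nppa were at 0 in all 4 libraries. Myl2 and Actc1 were above 0 in KO replicate 1 alone, at 4.06 and 1.72 FPKM from 27 and 28 fragments. Tnnt2 was above 0 in KO replicate 2 alone, from 4 fragments. The part of muscle RNA in the values of Cox6a2 was not tested. On the log2 scale it differed by -1.13 (SE 0.701, limma adjusted p = 0.948), and 0.0019 without KO replicate 2. Cox6a2 lies within the span of Itgad on the opposite strand (chromosome 7, 128205435 to 128206387, minus strand, GENCODE M21 on GRCm38), and Itgad was listed at 0 in all 4 libraries. No source used here says whether counting used strand. Cox6a2 made up 30.7% and 23.1% of the summed FPKM of Cox6a1 and Cox6a2 in WT, 21.2% in KO replicate 1 and 10.4% in KO replicate 2.

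Other alternative forms were minor. Cox4i2, a form known for oxygen sensing in lung, was at 2.56 and 0.736 FPKM in WT, with KO replicate 1 at 1.08 FPKM and 0 in KO replicate 2, from at most 8 fragments (log2 difference -0.79, from -1.31 to -0.26 with 1 library left out). It was 1.85% or less of the summed FPKM of Cox4i1 and Cox4i2 in every library. Cox6b2, known as the testis form, was at 13.7 and 13.3 FPKM in WT, against 12.6 and 19.5 FPKM in the KO-labelled pair (log2 difference 0.20). Ndufa4 was at 87.6 and 80.2 FPKM in WT, against 91.5 and 76.0 FPKM in KO replicates 1 and 2 (log2 difference -0.01, and 0.16 by edgeR). Its paralog Ndufa4l2, which is induced by low oxygen in other cells, was at 0.256 FPKM in WT replicate 1, 0.686 FPKM in KO replicate 1 and 0 in the others.

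**Figure D4:**
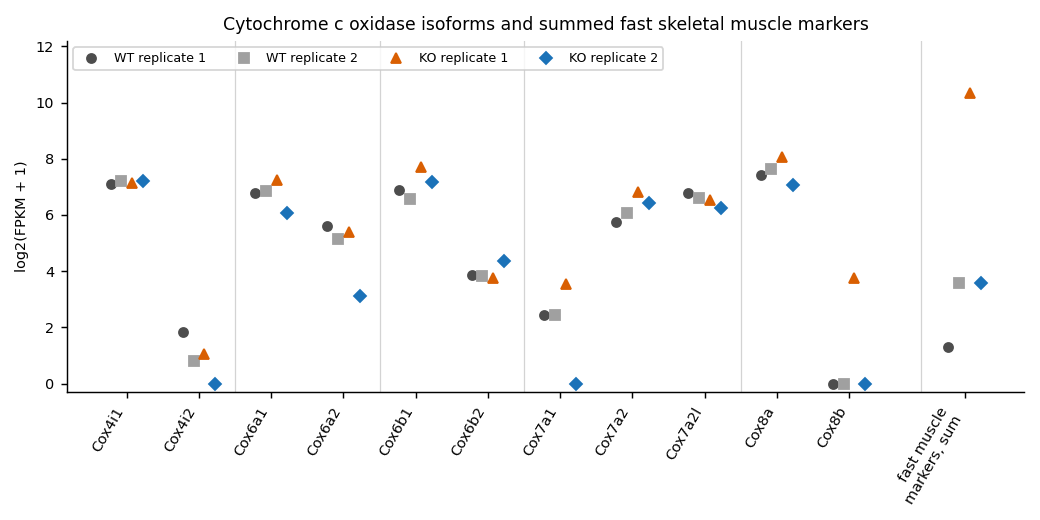
Log2(FPKM + 1) of general and alternative complex IV forms and of the sum of 14 fast skeletal muscle markers in each library. Cox8b is above 0 in KO replicate 1 alone, the library with the highest muscle marker sum (1304 FPKM), while Cox6a2 is lowest in KO replicate 2 (7.68 FPKM).

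The partners of these subunits that the mitochondrial genome encodes showed a gap in 1 library. Of the 13 mitochondrially encoded subunits, 2 were higher and 11 lower by FPKM in the libraries labelled KO (84.6% lower, against 45.9% of all genes). The median log2 difference was -0.33 and none passed the limma threshold. By edgeR 3 were higher and 10 lower, with a median of -0.24. Their median difference from the WT mean on the log2 scale was -0.70 for KO replicate 1 and 0.11 for KO replicate 2. In KO replicate 1, 6 genes that follow each other along the genome were almost missing: mt-Co2, mt-Atp8, mt-Atp6, mt-Co3, mt-Nd3 and mt-Nd4l. All 6 are among the 11 lower by FPKM. Between positions 7013 and 10173 of the mitochondrial genome (GENCODE M21), these 6 summed to 2473 and 3892 CPM in WT, 26.5 CPM in KO replicate 1 and 4826 CPM in KO replicate 2. In KO replicate 1 each was at 1.898% or less of its WT mean by CPM, and the other 7 mitochondrial genes were at 67.2% to 231%. mt-Co3, subunit 3 of complex IV, was at 2053 and 2947 FPKM in WT, with KO replicate 1 at 12.8 FPKM and KO replicate 2 at 4725 FPKM. mt-Co1, the catalytic subunit, lies just before the stretch and was at 3849, 4403, 2535 and 4454 FPKM in the same order. mt-Nd4, just after it, was at 749, 1876, 1055 and 1004 FPKM. The table gives mt-Atp8 to mt-Nd4 a common locus, so the division of fragments among them is uncertain. No cause of the gap was tested.

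**Figure D5:**
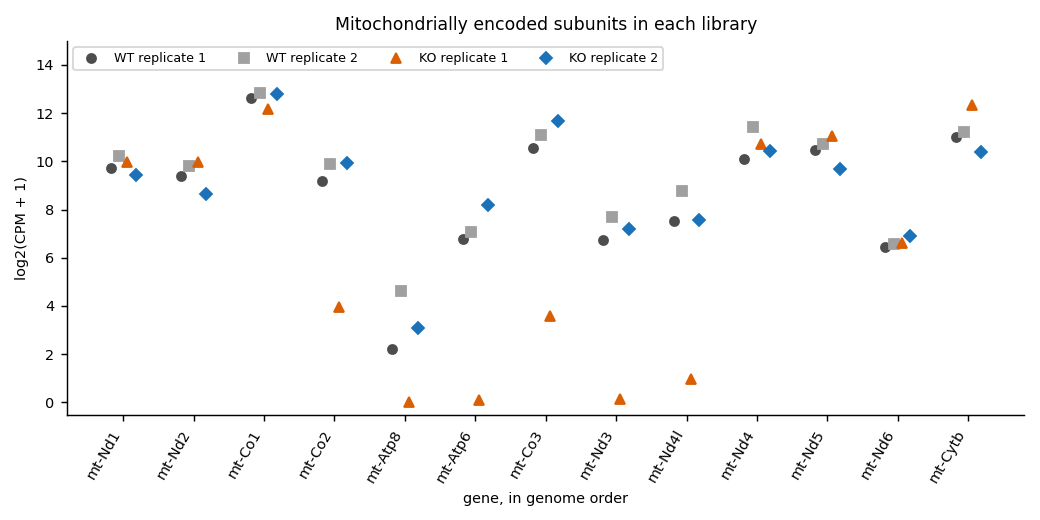
Log2(CPM + 1) of the 13 mitochondrially encoded subunits in genome order in each library. From mt-Co2 to mt-Nd4l KO replicate 1 lies far below the other 3 libraries (26.5 CPM in all), and outside that stretch it lies among or near them.

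Nuclear partners gave no call either. Their counts are by FPKM, where 45.9% of all genes tested were lower in the libraries labelled KO. Of 20 tested complex IV assembly factors, 7 were higher and 13 lower in the libraries labelled KO, with a median log2 difference of -0.20, and none passed the limma threshold. Cox14, which takes part in the assembly of the first core subunit of complex IV, was at 27.3 and 25.8 FPKM in WT, against 8.41 and 18.5 FPKM in KO replicates 1 and 2 (log2 difference -1.02, SE 0.37, limma adjusted p = 0.948). Coa6, a copper-handling factor of the same complex, was at 7.22 and 6.75 FPKM in WT, against 3.95 and 4.96 FPKM in the KO-labelled pair. Of 14 complex I assembly factors 5 were higher and 9 lower (median -0.14), and Timmdc1 was at 6.93 and 5.03 FPKM in WT, against 3.26 and 3.44 FPKM in the KO-labelled pair. Complex II (2 factors, median 0.45), complex III (5, median 0.04) and complex V factors (4, median 0.21) were few. Of 11 other nuclear subunits and carriers, 6 were higher and 5 lower (median 0.27), and Ndufab1 was at 21.7 and 25.4 FPKM in WT, against 16.1 and 19.5 FPKM in the KO-labelled pair. Etfa, which passes electrons from fatty acid oxidation toward ubiquinone, had a log2 difference of 0.63 by FPKM and 0.15 by edgeR. The list medians by edgeR were -0.20 for complex IV factors, -0.03 for complex I factors and 0.07 for other subunits and carriers. For complex II, III and V factors they were 0.49, 0.01 and 0.13.

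Among 9 regulators of respiratory chain genes, 6 were higher and 3 lower by FPKM, with a median log2 difference of 0.06 and none past the limma threshold. By edgeR 4 were higher and 5 lower, with a median of -0.05. Ppargc1a, a coactivator of mitochondrial biogenesis, was at 2.97 and 2.27 FPKM in WT, with KO replicate 1 at 6.89 FPKM and KO replicate 2 at 2.60 FPKM. Tfam, which binds mitochondrial DNA and takes part in its transcription, was at 3.65 and 8.08 FPKM in WT, against 7.23 and 8.18 FPKM in the KO-labelled pair, so the groups overlapped.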

How the data were processed

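RNA was measured in 2 WT and 2 KO-labelled libraries of sorted AT2 cells, made per the labels' protocols with a stranded kit after removal of ribosomal RNA. Reads were handled with HISAT2 2.0.4, cutadapt 1.9.3, Cufflinks and Cuffdiff 2.2.1 on mm10, per the submitters' processing notes. Not given in the sources used here are their settings, the annotation release and the use of strand. The authors deposited FPKM and estimated counts per gene, per the file headers. Each library's estimated counts are mostly multiples of 1 step. Division by it made 90.9% to 92.6% of values, the smallest left out, whole within 0.05. CPM used these recovered fragments unrounded, and edgeR and DESeq2 used them rounded.

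Groups were compared on log2(FPKM + 1) with limma 3.58.1 under R 4.3.3 (empirical Bayes with a variance trend), two-sided, KO-labelled minus WT, for genes with at least 1 FPKM in 2 of 4 libraries, with Benjamini-Hochberg adjustment over all genes at 0.05. A pseudocount of 1 understates changes of low genes. DESeq2 1.42.0 and edgeR 4.0.16 (TMM, quasi-likelihood) on recovered fragments, other pseudocounts, filters and scalings, no variance trend, a replicate block, leaving out each library, and a correction for GC content and length (added after seeing the data) were alternatives. The members and gene lists were chosen with earlier results of these data known. Log2 differences are given for 3 members per complex by smallest p, the 5 largest, isoform families and up to 3 genes per partner list; Cox6c and Ndufc2 were added because they were called without KO replicate 2. Coordinates are from GENCODE M21 (GRCm38, also called mm10), 1-based; all 86 members matched by identifier. Of the members, 66 share no 100-base stretch with another gene and 23 share a table locus with another gene, where division of fragments is uncertain.

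The limma fit was also run on simulated counts whose means, totals and spread were taken from these libraries. Of the members, 1 is counted but not reported singly here.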

Additional observations from a re-analysis of the deposited data

How the results depend on the processing

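Call counts held under most settings: limma called 0 members under every alternative fitted to all 4 libraries, and edgeR and DESeq2 called none. Over all genes DESeq2 called 7, and leaving out 1 library gave 0 to 134 calls over all genes and 0 to 2 among members, the highest without KO replicate 2 and 3 over all genes without WT replicate 2. Members lower numbered 34 of 79 by edgeR, 34 of 83 by DESeq2, 51 under TMM scaling of FPKM and 40 to 49 with 1 library left out.

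Medians moved with the scale and, in complex IV, with the filter: 0.0294 at 5 FPKM, which leaves out Cox4i2 and Cox7a1, and -0.0622 with no filter. By DESeq2 they were 0.0877 over 83 members, Ndufa4l2 and Cox8b included, 0.0714 in complex I, 0.169 in complex IV and 0.142 in complex V. Over the 81 tested members DESeq2 gave 0.0756, with 0.0665 in complex I and 0.158 in complex IV. By edgeR they were 0.0697 over 79 members, 0.058 in complex I, 0.154 in complex IV and 0.137 in complex V. After GC and length correction they were -0.0012, 0.0449, 0.185 and -0.0026, with -0.162 in complex III, and at equal totals -0.0223 over members and 0.0384 in complex I. Leaving out 1 library gave -0.128 to 0.0019 over members, -0.133 to 0.0176 in complex I, 0.0255 to 0.258 in complex II, -0.393 to -0.108 in complex III, -0.197 to 0.135 in complex IV and -0.112 to 0.169 in complex V.

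Single members turned sign, with values in log2. By DESeq2 Sdhc was at -0.0089, Sdha at 0.0105, Cox6a1 at 0.158, Cox7a1 at 0.842 and Ndufa4 at 0.168. By edgeR Sdhc was at -0.0134, Sdha at 0.006, Cox6a1 at 0.154 and Ndufa4 at 0.165. After GC and length correction Cox6a1 was at 0.185 and Ndufa4 at 0.173, under TMM scaling of FPKM Cox4i1 at -0.0117 and Cox8a at -0.0143, and at equal totals Ndufa4 at 0.049. Leaving out 1 library, the ranges were -0.226 to 0.112 for Sdha, -0.464 to 0.523 for Cox8a, -0.687 to 0.023 for Atp5g3, -0.7997 to 0.039 for Atp5g1, -2.26 to 0.0019 for Cox6a2, -0.0156 to 0.0796 for Cox4i1, -0.748 to 0.441 for Cox6a1, -0.0979 to 0.497 for Cox6b2, -2.43 to 1.11 for Cox7a1 and -0.139 to 0.125 for Ndufa4. The cause was not tested. Ndufa12 ran from -1.32 to -1.05 and Uqcrq from -0.835 to -0.617.

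Same-numbered libraries had deviations from the group means that correlated at 0.0257, and no label pairs them. With a replicate block limma called 0 genes and 7 members had an unadjusted p under 0.05. The shallowest library held 4167117 fragments, and values of genes such as Cox4i2, Cox7a1 and Atp5k rest on few fragments.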
